A study of Mus musculus with 12 samples.

Results

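The genes described here encode the proteasome: its subunits, its assembly factors and a few proteins that act on it. They were chosen by gene symbol alone, as genes with a single symbol in the platform annotation that starts with Psma to Psmg and a digit, or is Pomp, Nfe2l1, Uchl5 or Adrm1. The pattern found 52 of the 18193 named genes on the array. Of these, 50 concern the proteasome. The other members, Psmc3ip (a cofactor of meiotic recombination) and Psme3ip1 (a protein that binds Psme3), match by name and are no subunits. Where a gene had several probe sets, the one with the highest mean over all 12 arrays on the log2 scale was read. The 52 genes had 107 probe sets, and 28 genes had more than 1. No probe set with Adrm1 as its only symbol was analysed here. Psme2 shares its probe set with Psme2b and is given apart from the counts.

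Every cell in the study was a TSC2-/- mouse embryonic fibroblast (MEF), so the controls lack TSC2 as well, and no cell with TSC2 was compared. TSC2 restrains the kinase complex mTORC1, which rapamycin inhibits. Cells received DMSO as vehicle or 20 nM rapamycin for 14 h, or, when confluent, an adenovirus carrying GFP or PGC-1alpha for 10 h with harvest 14 h after the medium was changed. Each of the 4 groups had 3 arrays, called biological triplicates in the series design text. The labels do not say whether the line is a single clone.

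The proteasome degrades proteins marked with ubiquitin. Its 20S core is a barrel of alpha and beta rings with the protease sites inside, and the 19S cap binds the ubiquitin chain, unfolds the substrate with a ring of ATPases and removes the ubiquitin. Interferon exchanges the catalytic beta subunits for those of the immunoproteasome, and dedicated chaperones build the core and the base of the cap. The transcription factor Nfe2l1 is known to raise subunit genes together through antioxidant response elements when proteasome activity runs short, and mTORC1 has been reported to act on subunit genes through it in cells without TSC.

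Of the 52 genes, 36 fell with rapamycin and 2 rose at a limma adjusted p under 0.05. That is 69.2% lowered, where 18.0% of all genes were lowered, and 3.85% raised, where 11.3% of all genes were raised. The median change was -0.24 on the log2 scale, beside -0.01 over all genes. Genes with a high signal fell more often in these arrays, and most members are among them. Of 41 members with a mean log2 value of at least 9, 31 fell (75.6%), where 38.9% of all genes past that level fell and 16.4% rose; the median over those genes was -0.08. In 38 of the 52 genes all rapamycin arrays lay below all vehicle arrays (24.6% of all genes), and in 3 all lay above (17.5%). The 2 rises were of Psme1 and Psmd10. Without rapamycin replicate 3 or vehicle replicate 1 the count of raised members was 0, and without vehicle replicate 2 it was 1. Of all genes 1654, 1579 and 1681 rose in these settings, beside 2061 with all arrays.

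With PGC-1alpha, 1 of the 52 genes rose, Psmb10, and 0 fell, with a median of 0.03 beside 0.01 over all genes. The shares over all genes were 1.41% raised and 0.594% lowered. Of the 41 members with a mean log2 value of at least 9, 0 passed, where 3.50% of all such genes rose and 1.25% fell. At an unadjusted p under 0.05, 7 members were higher and 2 lower, beside 1615 and 602 of all 18193 genes. The standard errors of the 52 changes ran from 0.06 to 0.09, so the changes that did not pass are known only to that precision.

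**Figure D1:**
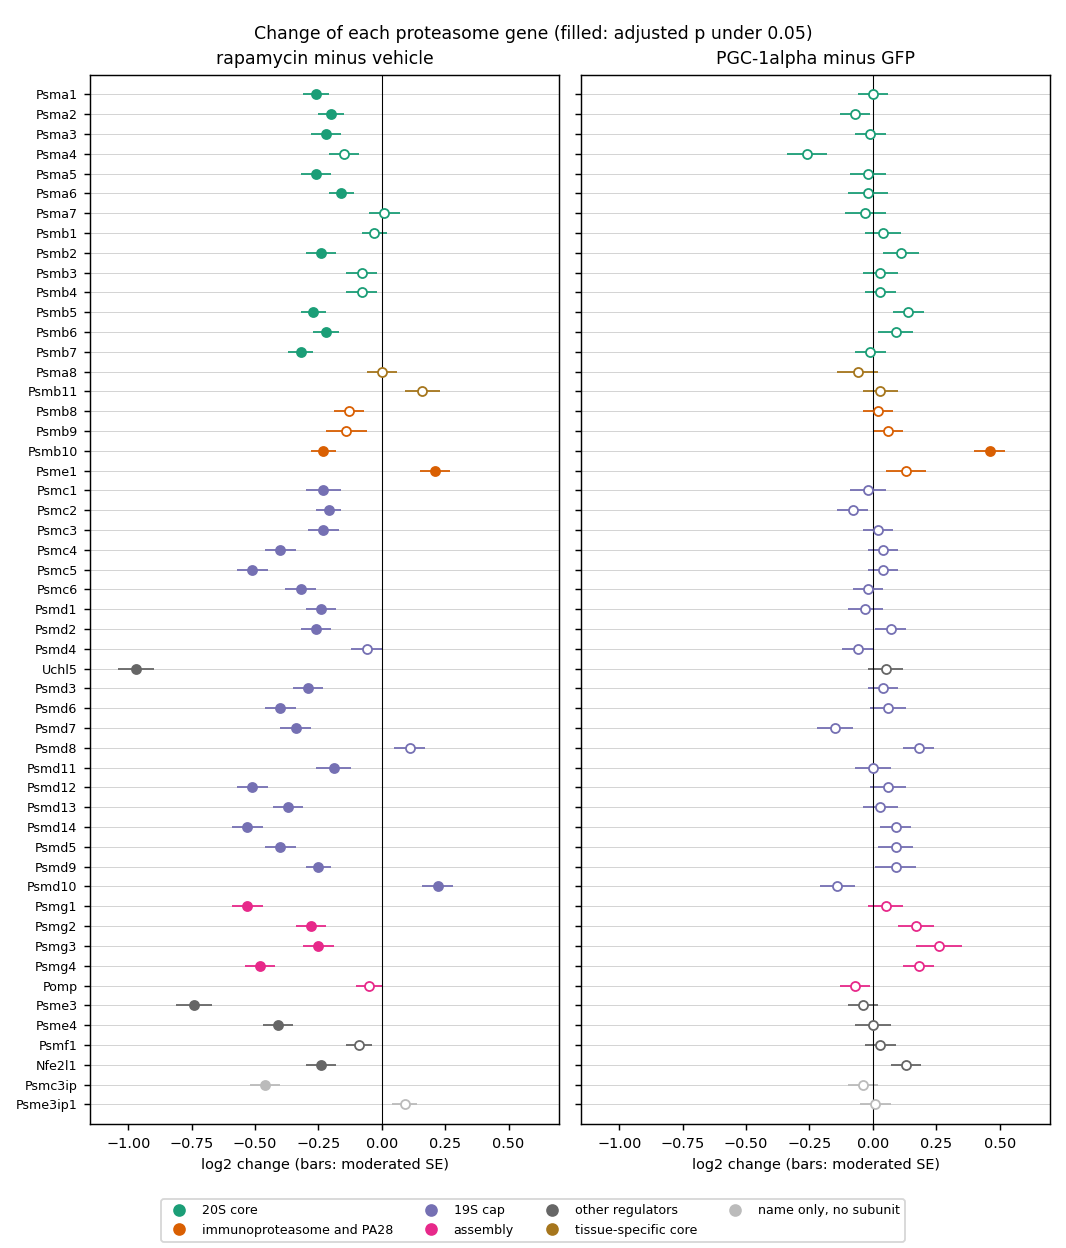
Log2 change of each of the 52 genes with rapamycin (left) and PGC-1alpha (right), with moderated standard errors from limma, n = 3 arrays per group; filled points passed an adjusted p of 0.05. With rapamycin 36 filled points lie left of 0 and 2 right of it, and with PGC-1alpha the 1 filled point is Psmb10 at 0.46.

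Array medians ran from 77.48 to 80.99, and across probe sets, which are not independent, no pair of arrays of a group correlated below 0.9970 in log2 values. The PGC-1alpha label was borne out, with Ppargc1a at a log2 change of 4.74 (SE 0.09, limma adjusted p = 3.6e-11). The 3'/5' ratio of the Gapdh control probe sets, a sign of RNA quality, was 0.807 to 0.826 with rapamycin, 0.840 to 0.861 with vehicle, 0.865 to 0.879 with GFP and 0.894 to 0.905 with PGC-1alpha. It did not overlap within either comparison, and its part in the changes below was not tested. Fibroblast markers summed to intensities between 53520 and 72100 on every array. With rapamycin 4 of 10 of them rose (Pdgfrb 0.67, Dcn 0.34, Fn1 0.20 and Sparc 0.19), and their sum was 67580 to 72100 beside 64260 to 66600 with vehicle. After scaling on spike controls 1 of the 10 was raised and 2 were lowered. Macrophage markers (6 measured, Cd68 0.29 and Cd14 0.19 raised) summed to 791.2 to 815.8 beside 730.5 to 759.0, and with spike scaling 0 were raised and 1 was lowered. Epithelium markers (5 measured, Krt18 0.56 and Cdh1 0.24 raised, Krt19 -0.40) overlapped, at 2197 to 2277 beside 2222 to 2258, and with spike scaling 1 was raised and 1 lowered. None of the 4 endothelium or 3 T and B cell markers passed (with spike scaling 1 of each list was lowered). No intensity in the data was below 9.299, and without detection calls weak marker signals cannot be told from background. With PGC-1alpha no marker passed. The part of other cells in the results was not tested, and in bulk samples fewer cells of a type and less RNA per cell cannot be told apart.

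The sequences before the gene starts are shown first because the members moved together and Nfe2l1 is itself a member. RefSeq promoters (GRCm38.p6) were matched for 44 of the 52 genes, with 51 starts between them. In the 250 bases before each start, both strands were searched for the core of the antioxidant response element, TGACNNNGC, for a core of the YY1 site, AANATGGC, and for the CCAAT box. A match is a run of letters in this window and was not measured as a bound site.

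The member with both of the longer motifs was Psmb5, the chymotrypsin-like protease of the core. Its 250 upstream bases, at chr14:54617996-54618245 on the minus strand, have the YY1 core at 176 and 91 bases and the antioxidant response element core at 47 bases before the start, all in capitals:
Psmb5: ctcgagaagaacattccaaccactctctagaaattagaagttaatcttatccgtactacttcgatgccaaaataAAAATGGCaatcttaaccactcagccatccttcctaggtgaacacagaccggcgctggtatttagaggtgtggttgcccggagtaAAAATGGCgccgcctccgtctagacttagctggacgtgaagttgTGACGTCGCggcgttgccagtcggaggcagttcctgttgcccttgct

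The antioxidant response element core lay before 5 further members, shown as 30-base windows with the match in capitals. Those of Uchl5, at chr1:143777234-143777263, Psmd9, at chr5:123228149-123228178, and Psmb6, at chr11:70525327-70525356, are on the plus strand and read the motif in the direction of the gene. Psmc6, at chr14:45329587-45329616, and Psmd12, at chr11:107479278-107479307, also on the plus strand, hold it reversed. The starts listed for Uchl5 and Psmb6 are alternative ones, and their windows lie inside the annotated gene.
Uchl5: gcgcggcaggTGACGGCGCccggaggctgt
Psmd9: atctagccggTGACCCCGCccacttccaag
Psmb6: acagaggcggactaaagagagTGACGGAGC
Psmc6: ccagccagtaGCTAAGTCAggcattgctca
Psmd12: tctGCTGTGTCAcatttgcccccctcagac

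All 6 genes with this core fell with rapamycin, by 0.22 (Psmb6) to 0.97 (Uchl5) on the log2 scale. Of all 52 members 36 fell (69.2%), with or without it. The motif is common, however. It was in 11.8% of the members' promoters and in 10.2% of all 32851 promoters, and 17.4% of all measured genes holding it fell with rapamycin beside 18.7% of those without it. The YY1 core was in 3.92% of member promoters (Psmb5 and Psma4) and 3.91% of all, and the CCAAT box in 39.2% and 33.8%. So the windows of the members held these motifs about as often as promoters in general.

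The promoter of Psmb10, the 1 member that rose with PGC-1alpha, is shown because of that rise. PGC-1alpha is known to act through estrogen-related receptors, whose half-site is AAGGTCA. This motif was chosen after the values were seen. The 250 bases at chr8:105938393-105938642, minus strand, hold it reversed, in capitals, 42 bases before the start:
Psmb10: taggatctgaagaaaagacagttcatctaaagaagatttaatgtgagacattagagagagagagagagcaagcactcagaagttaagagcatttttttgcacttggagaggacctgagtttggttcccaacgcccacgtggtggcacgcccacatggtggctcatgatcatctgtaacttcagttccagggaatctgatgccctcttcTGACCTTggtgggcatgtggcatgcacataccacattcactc

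The half-site was in 7.84% of member promoters (Psma3, Psmb10, Psmc3ip and Psmd2) and 4.08% of all. Of these genes Psmb10 alone passed with PGC-1alpha; Psma3 was at -0.01, Psmd2 at 0.07 and Psmc3ip at -0.04. A further motif chosen after the values were seen was the site of nuclear respiratory factor 1 (NRF1). This NRF1 is a different factor from Nfe2l1. The motif was in 11.8% of member promoters (Psma2, Psma3, Psma4, Psmc4, Psmc5 and Psmd14) and 3.74% of all. Of all measured genes with the NRF1 site 30.4% fell with rapamycin, beside 17.7% of those without. These shares were not matched for signal, and 38.9% of all genes with a mean log2 value of at least 9 fell. A part of the site in the fall was not tested.

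The constitutive core fell in part. Rapamycin lowered 9 of its 14 genes and raised 0 (0 also at an unadjusted p under 0.05), at a median change of -0.21. In the alpha ring, which gates the entry of substrates, 5 of 7 genes fell. Psma1 and Psma5 fell by 0.26 each, Psma3 by 0.22, Psma2 by 0.20 and Psma6 by 0.16. Psma4 was at -0.15 (SE 0.06, limma adjusted p = 0.068) and Psma7 at 0.01 (SE 0.06, adjusted p = 0.927). The Psma6 call is narrow (adjusted p = 0.045) and was lost in 8 of 15 other settings, among them without rapamycin replicate 1 (0.128), rapamycin replicate 3 (0.115), vehicle replicate 1 (0.053), vehicle replicate 2 (0.142) or vehicle replicate 3 (0.119), with the fit on 12 arrays (0.097) and with quantile normalization over 12 arrays (0.156). Psma4 passed without rapamycin replicate 2 (-0.19, adjusted p = 0.025) and in 4 further settings.

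In the beta ring all 3 protease subunits fell. Psmb7, with the trypsin-like site, was at 4519, 4774 and 4647 with rapamycin and 5814, 5850 and 5725 with vehicle. It fell by 0.32 (SE 0.05, limma adjusted p = 4.5e-04), more than any other core gene, and its groups lay far apart. Psmb5 was at 2905, 3157 and 3014 with rapamycin and 3665, 3634 and 3613 with vehicle, a fall of 0.27 (SE 0.05, adjusted p = 0.0022). Psmb6, with the caspase-like site, fell by 0.22 (SE 0.05, adjusted p = 0.0061). Of the beta subunits without a protease site Psmb2 fell by 0.24. Leaving out rapamycin replicate 1 or vehicle replicate 2 ended that call (adjusted p = 0.055 and 0.062). Psmb1 (-0.03), Psmb3 (-0.08) and Psmb4 (-0.08) did not pass, and their groups overlapped.

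The tissue-specific core subunits Psma8, of the testis, and Psmb11, of the thymus, gave intensities of 25.84 to 67.21 on all arrays and did not pass in either comparison, although Psmb11 did without rapamycin replicate 2 (0.21, adjusted p = 0.035). Without detection calls such values cannot be told from background.

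Of the 20 cap genes, rapamycin lowered 17 and raised 1, and their median change was -0.28. All 6 ATPases of the base fell, by 0.21 (Psmc2) to 0.51 (Psmc5). Psmc5 was at 1458, 1633 and 1555 with rapamycin and 2232, 2181 and 2192 with vehicle (SE 0.06, limma adjusted p = 2.2e-05). Each rapamycin array thus lay below the lowest vehicle array by more than the span of the vehicle arrays. Psmc4 fell by 0.40, Psmc6 by 0.32, and Psmc1 and Psmc3 by 0.23 each. The Psmc1 call was lost in 4 of 15 other settings, among them without rapamycin replicate 1 (adjusted p = 0.092), vehicle replicate 1 (0.071) and vehicle replicate 2 (0.095).

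Of the non-ATPase base subunits, the scaffolds Psmd1 and Psmd2 fell by 0.24 and 0.26. The ubiquitin receptor Psmd4 was at -0.06 (SE 0.06, limma adjusted p = 0.530) with overlapping groups.

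In the lid, 7 of 8 genes fell. Psmd14, the metalloprotease that cuts ubiquitin off the substrate, was at 2565, 2935 and 2854 with rapamycin and 4094, 4075 and 3868 with vehicle. It fell by 0.53 (SE 0.06, limma adjusted p = 3.1e-05), a 1.44-fold difference, and the groups did not overlap. Psmd12 was at 1336, 1492 and 1415 beside 2076, 2015 and 1951, a fall of 0.51 (SE 0.06, adjusted p = 2.5e-05). Psmd6 fell by 0.40, Psmd13 by 0.37, Psmd7 by 0.34 and Psmd3 by 0.29. Psmd11 fell by 0.19 (adjusted p = 0.047), a call lost in 7 of 15 other settings. Among them were the fits without rapamycin replicate 1 (0.183), rapamycin replicate 3 (0.121), vehicle replicate 1 (0.153), vehicle replicate 2 (0.068) and vehicle replicate 3 (0.099). Its 8 probe sets included 4 that fell. The exception was Psmd8, at 2055, 2313 and 2245 with rapamycin and 1981, 2018 and 2111 with vehicle. These groups overlapped (log2 change 0.11, SE 0.06, limma adjusted p = 0.210). Psmd8 passed as raised after quantile normalization over 12 arrays (0.21, adjusted p = 0.0093) and was at -0.05 after scaling on spike controls. Sem1, a small lid subunit whose name lies outside the pattern, rose by 0.18 (SE 0.05, adjusted p = 0.025), a call lost after scaling on spike controls.

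The chaperones of the base are counted with the cap by name. Psmd5 fell by 0.40 (SE 0.06, limma adjusted p = 1.2e-04) and Psmd9 by 0.25 (SE 0.05, adjusted p = 0.0028). Psmd10 (gankyrin) was at 307.7, 339.2 and 358.2 with rapamycin and 278.0, 293.5 and 288.1 with vehicle. It rose by 0.22 (SE 0.06, adjusted p = 0.019). The rise was lost without rapamycin replicate 3 (0.17, adjusted p = 0.099), without vehicle replicate 1 (0.20, 0.078) and with spike scaling (0.06, 0.525). Without these 3 chaperones the cap had 15 of 17 genes lowered and a median of -0.29.

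The assembly factors of the core fell, all but one. Rapamycin lowered 4 of the 5 and raised 0, at a median change of -0.28. Psmg1, which with Psmg2 assembles the alpha ring, was at 819.4, 933.3 and 846.1 with rapamycin and 1288, 1247 and 1219 with vehicle, a fall of 0.53 (SE 0.06, limma adjusted p = 2.5e-05). Psmg2 fell by 0.28 (SE 0.06, adjusted p = 0.0019). Psmg4 was at 478.6, 507.8 and 537.6 with rapamycin and 682.7, 700.3 and 743.0 with vehicle, a fall of 0.48 (SE 0.06, adjusted p = 5.6e-05). Its partner Psmg3 fell by 0.25 (SE 0.06, adjusted p = 0.0047). In these 4 genes no rapamycin array reached a vehicle array. Pomp, which joins the half-built cores, was at 1997, 2091 and 2129 with rapamycin and 2156, 2208 and 2085 with vehicle. Its groups overlapped and the change of -0.05 did not pass (SE 0.05, adjusted p = 0.559).

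The immunoproteasome and PA28 genes went both ways. Psmb10, the inducible counterpart of Psmb7, was at 427.8, 434.6 and 403.9 with rapamycin and 501.2, 490.3 and 497.3 with vehicle, a fall of 0.23 (SE 0.05, limma adjusted p = 0.0052). Psmb8 and Psmb9, the counterparts of Psmb5 and Psmb6, read at most 97.22 and 52.46 in this comparison and did not pass (-0.13 and -0.14, adjusted p = 0.161 and 0.248). Psme1, a subunit of the interferon-induced activator PA28, was at 1046, 1202 and 1129 with rapamycin and 938.0, 951.2 and 1020 with vehicle. It rose by 0.21 (SE 0.06, adjusted p = 0.024), and the groups did not overlap. The call was lost in 5 of 15 other settings: with spike scaling (0.05, adjusted p = 0.573) and without rapamycin replicate 2 (0.079), rapamycin replicate 3 (0.070), vehicle replicate 1 (0.097) or vehicle replicate 2 (0.081). The probe set shared by Psme2 and Psme2b was at 1357, 1403 and 1431 beside 1236, 1307 and 1349 (0.11, SE 0.06, adjusted p = 0.201).

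The greatest fall among the 52 genes was that of Uchl5, a deubiquitinase held on the cap by Adrm1 that also occurs in the INO80 chromatin remodeller. It was at 546.7, 613.9 and 630.7 with rapamycin and 1249, 1178 and 1079 with vehicle. This is a 1.96-fold fall (log2 change -0.97, SE 0.07, limma adjusted p = 8.5e-07), and the highest rapamycin array lay well below the lowest vehicle array. The change was between -1.13 and -0.89 in all 15 other settings. Its second probe set, at mean intensities of 13.85 with vehicle and 14.57 with rapamycin, did not pass (0.07).

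Psme3 (PA28 gamma), a nuclear activator of the core, came next. It was at 318.5, 368.2 and 313.4 with rapamycin and 563.2, 537.1 and 564.5 with vehicle, a fall of 0.74 (SE 0.07, limma adjusted p = 3.9e-06). A further probe set of Psme3 fell by 0.75, and the remaining one, at a mean intensity of 49.9 with vehicle, did not pass (0.15). The nuclear activator Psme4 (PA200) fell by 0.41 (SE 0.06, adjusted p = 3.5e-04), with 3 of 6 probe sets lowered, by 0.40 to 0.42. The inhibitor Psmf1 (PI31) was at -0.09 (SE 0.05, adjusted p = 0.239). Its rapamycin arrays, at 498.2, 531.9 and 516.5, all lay below its vehicle arrays, at 555.0, 540.5 and 555.3.

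Nfe2l1 itself was at 728.6, 843.3 and 723.4 with rapamycin and 914.1, 894.3 and 887.4 with vehicle. It fell by 0.24 (SE 0.06, limma adjusted p = 0.016) without overlap. The call was lost in 4 of 15 other settings: after quantile normalization over 12 arrays (-0.15, adjusted p = 0.055) and without rapamycin replicate 1 (0.066), rapamycin replicate 3 (0.079) or vehicle replicate 1 (0.060). Nfe2l1 activity is known to be set mainly by processing of the protein, which arrays do not measure. Of the members that are no subunits, Psmc3ip fell by 0.46 and Psme3ip1 did not pass (0.09). Psme3ip1 passed as raised after quantile normalization over 12 arrays (0.17, limma adjusted p = 0.016).

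**Figure D2:**
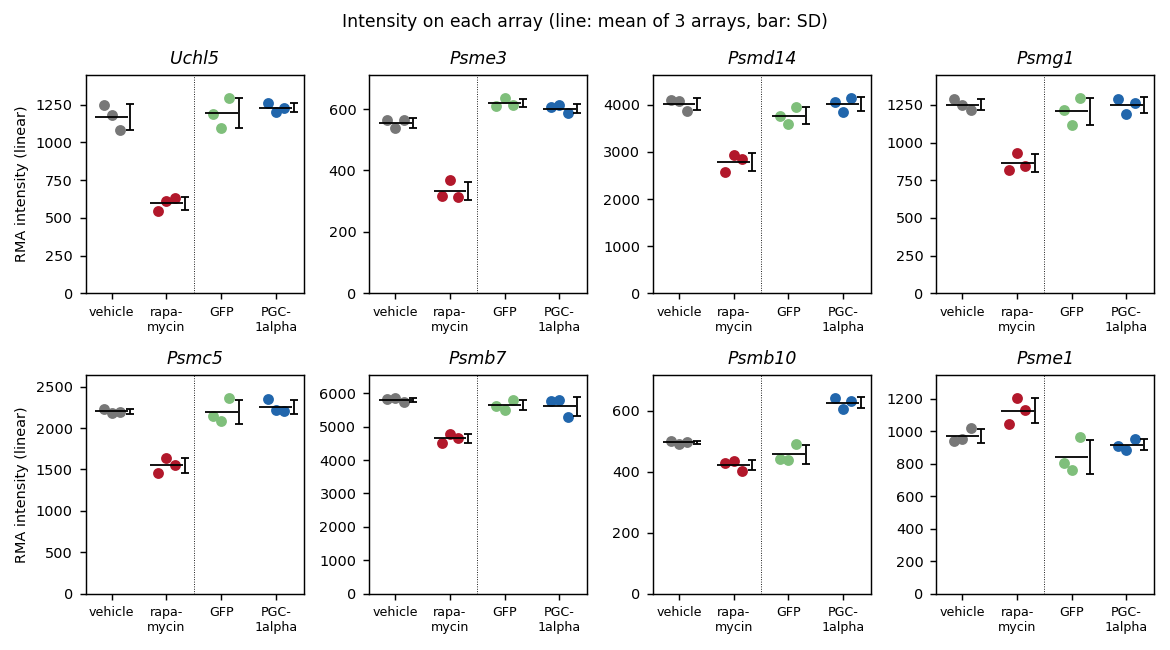
Deposited RMA intensity (linear) of 8 members on each array, with the mean of 3 arrays as a line and the SD as a bar; the dotted line parts arrays normalized separately, which are not compared. Uchl5, Psme3, Psmd14, Psmg1, Psmc5 and Psmb7 are lower with rapamycin, Psme1 is higher, and Psmb10 is lower with rapamycin and higher with PGC-1alpha.

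Some calls rest on the choice of probe set or on probes that can bind several transcripts. Psma3 and Psmc2 each had a weak probe set that rose against the strong one: 0.25 for Psma3, at mean intensities of 56.75 beside 47.63, and 0.23 for Psmc2, at 85.33 beside 72.96. The strong probe sets of Psma6 and Psmc2 carry the suffix x and those of Psmd11 and Psme4 the suffix s, by which the maker marks probes that may match other transcripts. Strong probe sets without these suffixes fell for Psmc2 (-0.28), Psmd11 (-0.31) and Psme4 (-0.42), and that of Psma6 did not pass (-0.12, limma adjusted p = 0.123). Among the members that fell, 9 had further probe sets with a mean log2 value of at least 9. Of these 12 probe sets 7 fell, 0 rose and 5 did not pass. The 5 were all below 0: that of Psma6, 1 for Psma5 (-0.10, adjusted p = 0.265), 1 for Psmd6 (-0.15, 0.155), 1 for Psmc6 (-0.17, 0.064) and 1 for Psmd11 (-0.04, 0.706). The calls of Psma5, Psma6, Psmd6 and Psmc6 thus rest on 1 of their strong probe sets.

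The rapamycin arrays differed in how far the classes fell. Averaged over the genes of a class and set against the vehicle mean, the core was at -0.24, -0.13 and -0.16 on rapamycin replicates 1, 2 and 3. The cap was at -0.35, -0.20 and -0.26, and the assembly genes at -0.38, -0.28 and -0.30. Replicate 1 was lowest in each class, and all 3 arrays lay below the vehicle arrays, which stayed between -0.03 and 0.02. The immunoproteasome and PA28 genes were at -0.16, 0.01 and -0.07. Genes of a class are not replicates, so these means describe the arrays. Without rapamycin replicate 1, 31 members fell and 2 rose, where 2731 of all genes fell and 1929 rose.

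**Figure D3:**
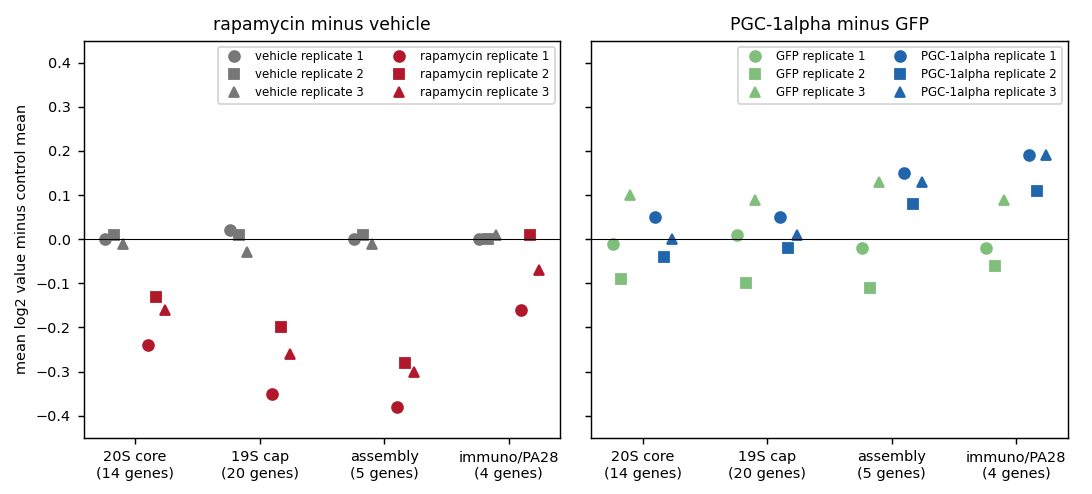
Mean log2 value of the genes of each class on each array, minus the mean of the control arrays (vehicle, left; GFP, right). On the left the rapamycin points of the core, the cap and the assembly genes lie between -0.38 and -0.13, with replicate 1 lowest; on the right the GFP replicates spread from -0.11 to 0.13.

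Scale matters for how many genes fell. The deposited values set the median change of all probe sets to 0.00. Scaling each array on 9 spike control probe sets moved that median to -0.16. With it 44 members were lowered and 0 raised, at a member median of -0.40. Of all genes 6511 fell and 696 rose (3275 and 2061 as deposited). The spikes averaged 10.87, 11.08 and 10.96 on the log2 scale with rapamycin and 10.86, 10.78 and 10.79 with vehicle. The shift thus rests on spikes that also differed between arrays of a group. Spike scaling moves every change of a comparison by the same amount. Quantile normalization over all 12 arrays gave 32 members lowered and 4 raised, with a member median of -0.17, where 2955 of all genes fell and 2654 rose. Under it 1202 of the 3747 genes with a mean log2 value of at least 9 fell and 948 rose (1457 and 613 as deposited). Their median was -0.01, beside -0.08 as deposited. Of the 41 members past that level 27 fell and 3 rose. With quantile normalization over 12 arrays the rapamycin medians were -0.15 for the core, -0.21 for the cap and -0.20 for the assembly genes. Spike scaling moved every rapamycin change down, so it could not have turned these medians positive. With PGC-1alpha the member median turned from 0.03 to -0.01 with quantile normalization over 12 arrays and was 0.17 with spike scaling, which moved the median of all probe sets to 0.14.

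**Figure D4:**
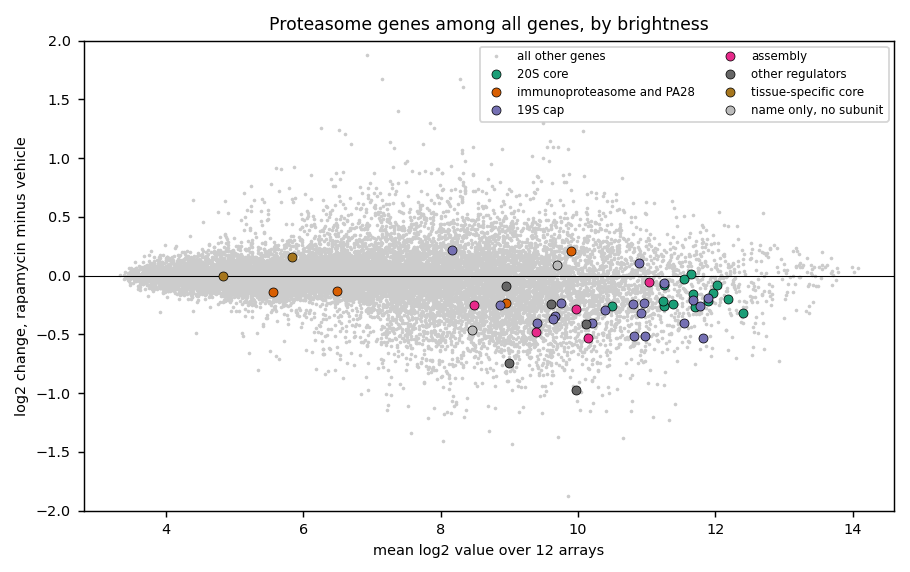
Log2 change with rapamycin (y) against the mean log2 value over 12 arrays (x) for all other genes (grey) and the 52 members (coloured by class). Most members lie at mean log2 values of 9 or more, where 38.9% of all genes fell, and 31 of these 41 members fell.

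PGC-1alpha left most of the proteasome without a call. The rise of Psmb10 was the exception. It was at 641.2, 607.2 and 631.8 with PGC-1alpha and 440.8, 438.6 and 491.4 with GFP, a 1.37-fold rise (log2 change 0.46, SE 0.06, limma adjusted p = 0.0031). The lowest PGC-1alpha array lay above the highest GFP array by more than the GFP arrays spanned. The call was kept in all 15 other settings. The related Psmb8 (0.02) and Psmb9 (0.06) did not pass, nor did Psme1 (0.13).

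Of the 14 core genes 0 passed, with a median of 0.00; at an unadjusted p under 0.05, 1 was higher (Psmb5, 0.14) and 1 lower (Psma4, -0.26). Psma4 was at 4002, 3574 and 3503 with PGC-1alpha and 4283, 4093 and 4862 with GFP. Its groups did not overlap, but the limma adjusted p was 0.142. It passed with the spread estimated over 12 arrays (adjusted p = 0.047) and after quantile normalization over 12 arrays (-0.28, adjusted p = 0.038). Of 20 cap genes 0 passed (median 0.04, with 1 higher and 1 lower unadjusted). Of 5 assembly genes 0 passed (median 0.17, with 3 higher and 0 lower unadjusted). At that unadjusted p, 1615 of all 18193 genes were higher and 602 lower. In 6 of the 52 genes all PGC-1alpha arrays lay above all GFP arrays (10.1% of all genes), and in 1 all lay below (5.72%).

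The GFP arrays spread to both sides of their mean. GFP replicate 3 lay 0.10 above it in the core, 0.09 in the cap and 0.13 in the assembly genes, and GFP replicate 2 lay 0.09, 0.10 and 0.11 below it. Without GFP replicate 3, 5 members passed as raised: Psmb10, Psmg3 (0.38, limma adjusted p = 0.0037), Psmg2 (0.24, 0.021), Psmd8 (0.23, 0.028) and Psme1 (0.23, 0.044). In that setting 1201 of all genes rose, beside 257 with all arrays. The 4 further calls thus rest on leaving out 1 control array.

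The difference between the rapamycin and PGC-1alpha effects was tested for each gene in a fit over all 12 arrays. Rapamycin minus PGC-1alpha was negative for 27 of the 52 genes and positive for 1 past the threshold, beside 16.5% and 7.59% of all genes. Of the 41 members with a mean log2 value of at least 9 it was negative for 22 (53.7%) and positive for 0, beside 37.0% and 10.8% of all such genes. Uchl5 differed most (-1.02, SE 0.10, limma adjusted p = 9.1e-07). Psme3 followed (-0.70, SE 0.09, adjusted p = 1.0e-05). Psmb10, lowered by one treatment and raised by the other, differed by -0.69 (SE 0.08, adjusted p = 5.3e-06). Psmg4 (-0.66), Psmd14 (-0.62), Psmg1 (-0.58), Psmd12 (-0.57) and Psmc5 (-0.55) also passed. By class the difference was negative for 5 of 14 core, 12 of 20 cap and 4 of 5 assembly genes. All 14 core genes have a mean log2 value of at least 9, and their share was close to the 37.0% of all such genes. Among the protease subunits of the core the difference was -0.41 for Psmb5, -0.31 for Psmb6 and -0.31 for Psmb7. All 3 passed (limma adjusted p = 0.0012, 0.012 and 0.0064). Psmd10 was the 1 gene with a positive difference (0.36, SE 0.09, adjusted p = 0.0085).

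Genes that work beside the proteasome changed in both directions with rapamycin. They come from lists chosen with earlier results of these data known. Beside the counts here and in the next paragraph, 11.3% of all genes rose and 18.0% fell. Of all genes with a mean log2 value of at least 9, 16.4% rose and 38.9% fell. After spike scaling 696 of all 18193 genes rose and 6511 fell. Of 9 proteins that bind the proteasome 4 fell and 1 rose, with a median of -0.15; after spike scaling 8 fell and 0 rose. Usp14, a deubiquitinase of the cap, fell by 0.45 (SE 0.06, limma adjusted p = 1.8e-04), the ubiquitin ligase Ube3c by 0.30 and the thioredoxin-like Txnl1 by 0.29, whereas Sem1 rose. Of 14 shuttle factors and cofactors of the unfolding ATPase p97, 6 fell and 2 rose (median -0.01; 6 and 0 with spike scaling). Rad23b, which carries ubiquitinated proteins to the cap, fell by 0.44 (SE 0.06, adjusted p = 8.0e-05) and the p97 cofactor Ufd1 by 0.40. Ubxn1 rose by 0.34 (SE 0.06, adjusted p = 9.4e-04). Uba6, the 1 measured gene among ubiquitin genes and E1 enzymes, did not pass (-0.08).

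A list of Nfe2l1 processing genes, partners, relatives and regulators of these had 3 raised and 3 lowered of 11. Scaled on spike controls, 5 fell and 3 rose. The Nfe2l1 relative Nfe2l3 rose by 0.52 (SE 0.05, limma adjusted p = 1.1e-05), with mean intensities of 93.71 with vehicle and 134.8 with rapamycin. The small Maf protein Maff rose by 0.44, and Ngly1, the deglycosylase that edits Nfe2l1, by 0.40. Nfe2l2, the oxidative stress factor, fell by 0.24 (SE 0.06, adjusted p = 0.012). Of 11 antigen presentation genes 2 rose and 1 fell, and after spike scaling 1 rose and 4 fell. Each gene is counted by its brightest probe set. By that one H2-D1 did not pass (-0.11), but 3 of its 9 probe sets rose and 0 fell. Further probe sets of other genes without a call passed in both directions. The peptide loading factor Tapbp rose by 0.50 and B2m, the light chain of class I molecules, by 0.28, and the chaperone Calr fell by 0.21. Interferon signalling genes had 3 raised and 2 lowered of 14, with the GTPase Gbp2 at 0.80, the kinase Jak2 at 0.62 and Ifit1 at -0.50. With PGC-1alpha 0 of the 60 genes on these lists passed by limma, and the smallest adjusted p was 0.208 (Ubqln1, 0.20). At an unadjusted p under 0.05, 6 were higher and 2 lower, beside 1615 and 602 of all 18193 genes.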

How the data were processed

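Mouse RNA was hybridised to 12 Affymetrix MOE430 v2 arrays. The authors deposited 1 intensity per probe set and array, made with RMA (background correction, quantile normalization, probe summary) in BioConductor 1.2, per the submitters' processing notes and the series design text. Rapamycin and vehicle arrays formed 1 batch and PGC-1alpha and GFP arrays another, so levels were compared only within a batch. The scale is not stated; values from 9.299 to 21072.43 were taken as linear, and log2 was applied with no pseudocount. The number of arrays limits the precision, and quantile normalization hides a change in total RNA per cell.

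Of 45101 probe sets 64 controls were left out. Each comparison was fitted with limma 3.58.1 (lmFit, eBayes; R 4.3.3) on its 6 arrays, and the difference between effects on 12. The tests were two-sided, with Benjamini-Hochberg adjustment over the 45037 others, and "rose" and "fell" mean an adjusted p under 0.05. Errors are moderated standard errors. The script was checked on simulated data. Symbols follow the platform annotation, with 34945 probe sets having 1 symbol, 932 several and 9160 none listed. Tables and figures used Python 3.11.15, pandas 2.3.3 and matplotlib 3.10.9. Every member may be named; of each companion list the text names up to 3 genes past the threshold with the largest change, the largest opposite one, or, where none passed, the one with the smallest p. Members, lists and tests were chosen with earlier results of these data known. Each member's change was recomputed under up to 15 alternatives.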

Additional observations from a re-analysis of the deposited data

How the results depend on the processing

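Of the 36 members lowered by rapamycin, 31 kept that call under every alternative run; the others, Nfe2l1, Psma6, Psmb2, Psmc1 and Psmd11, kept their direction. Both raised calls were lost under some alternatives, and the rise of Psmb10 with PGC-1alpha under none. Leaving out 1 array at a time gave 31 to 37 lowered and 0 to 2 raised with rapamycin. Over all genes the same fits gave 2731 to 3527 lowered and 1579 to 1929 raised. With PGC-1alpha they gave 1 to 5 members raised and 0 lowered, where 63 to 1201 of all genes rose and 36 to 195 fell. Differences were negative for 25 to 31 members and positive for 1, beside 2574 to 3603 and 1176 to 1561 of all genes. Members raised by rapamycin numbered 4 with quantile normalization over 12 arrays and 0 with spike scaling, where 2654 and 696 of all genes rose. Members lowered by PGC-1alpha numbered 1 with the fit on 12 arrays and 1 with quantile normalization, where 166 and 159 of all genes fell. Positive differences numbered 2 with quantile normalization and 0 with spike scaling, where 2044 and 157 of all genes passed as positive. Negative ones numbered 23 with quantile normalization and 41 with spike scaling, where 2710 and 5524 of all 18193 genes passed as negative. The causes were not tested. Same-numbered arrays share only a number: their deviations correlated at -0.052, 0.0716 and 0.00482 (rapamycin) and -0.133, 0.231 and -0.0113 (PGC-1alpha). With the replicate block 34 members fell and 2 rose with rapamycin, where 3230 of all genes fell and 2034 rose. Psma6 and Psmd11 were lost, at limma adjusted p = 0.054 and 0.059. With PGC-1alpha 1 member rose and 0 fell in that fit (254 and 94 of all genes). Of the differences 26 were negative and 1 positive (2945 and 1367 of all genes). Weak signals such as those of Psmb8, Psmb9, Psma8 and Psmb11 cannot be told from background without detection calls, and Psmb9, Psma8 and Psmb11 did not pass the filter at a mean log2 of 6.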
